A study of Mus musculus with 16 samples.

Results

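Bone morphogenetic protein (BMP) signalling was followed through 9 genes in reprogramming mouse embryonic fibroblasts (MEFs): the ligands *Bmp2* and *Bmp4*, the receptors *Bmpr1a* and *Bmpr2*, the secreted antagonist *Grem1*, the inhibitory Smad *Smad6* and the target genes *Id1*, *Id2* and *Id3*. The genes were taken by symbol from the table of 18990 genes, and all 9 were found once each and passed the filter on low expression. Of these, *Grem1* and *Smad6* oppose the signal, and the others carry or report it. RNA was sequenced in bulk from primary MEFs of wild-type BL6 mice at passage 2 that carried lentiviral rtTA and a doxycycline-inducible Oct4, Sox2, Klf4 and Myc cassette. Cells received 40 nM of a non-targeting siRNA pool (nt control) or of pooled siRNAs against *Wdr5* (a subunit of histone H3K4 methyltransferase complexes), *Brca1* or *Bard1* (partners in DNA double-strand break repair). Libraries were made at day 3 and day 6, 2 for each of the 8 groups, from independent experiments. Every group was grown on gelatin with LIF, serum, 2 µg/mL doxycycline, 3 µM of the GSK3 inhibitor chiron, 50 µg/mL ascorbic acid and 0.25 µM of an Alk5 inhibitor. That inhibitor blocks the TGF-β type I receptor in the nt control and the knockdowns alike. Bulk cultures mix cells that are and are not reprogramming, and fewer cells of a type cannot be told apart from less RNA per cell.

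BMP ligands bind a complex of type I and type II serine/threonine kinase receptors, which phosphorylates the receptor-regulated Smad proteins. These join Smad4, enter the nucleus and switch on the *Id* genes, whose products block basic helix-loop-helix transcription factors, and *Smad6*, whose product feeds back on the receptors. Secreted antagonists such as Gremlin and Noggin hold the ligands away from the receptors, and in fibroblast reprogramming BMP signals are known for favouring the mesenchymal-to-epithelial transition early in the process.

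Libraries held 11169738 to 26832534 reads, and 3 reads correspond to 0.115 to 0.260 CPM (read counts scaled for library size, as deposited), so the member with the fewest reads in any library, *Bmp2* with 25, lay above that floor. The targeted transcripts were lower at day 3: *Wdr5* measured 50.6 and 55.3 CPM in the siWdr5 libraries against 132 and 130.5 CPM in nt, *Brca1* measured 37.5 and 19.4 CPM in siBrca1 against 82.4 and 78.0 CPM, and *Bard1* measured 18.0 and 20.8 CPM in siBard1 against 30.5 and 29.1 CPM. These transcripts were also below nt in libraries of the other siRNAs at day 3. *Bard1* measured 13.9 and 15.3 CPM in siWdr5 and 14.4 and 9.07 CPM in siBrca1, *Brca1* 40.5 and 48.4 CPM in siWdr5, and *Wdr5* 74.3 and 68.9 CPM in siBrca1. At day 6 the siBrca1 and siBard1 libraries overlapped nt for their own targets. Of the 8 fibroblast markers examined all were in the table, at a summed 5797 to 6725 CPM in nt at day 3. Of 7 endothelial markers 6 were in the table, summing to 20.1 to 61.3 CPM by library, most of it from *Tek* (13.7 to 57.1 CPM). *Egfl7* and *Kdr* reached 100 and 45 reads, while *Pecam1*, *Cdh5* and *Emcn* did not exceed 35, 13 and 3 reads. Of 6 macrophage markers 5 were in the table, summing to 7.24 to 23.3 CPM, with up to 187 reads for *Cd68*, 126 for *Lyz2* and 109 for *Csf1r* and no more than 16 for *Adgre1* and 10 for *Tyrobp*.

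At day 3, knockdown cells held more RNA of the pathway's inhibitors and of part of its targets. *Smad6*, *Grem1* and *Bmpr2* rose in all 3 knockdowns, *Id1* and *Id3* rose in siWdr5 and siBrca1, *Bmp4* rose in siBard1 and *Bmp2* fell in siBrca1. Neither *Bmpr1a* nor *Id2* passed the test in any knockdown. In siWdr5, 5 of the 9 genes were higher and 0 lower (limma on log2 CPM, adjusted p below 0.05 over the 14028 genes tested), where 18.3% of all tested genes were higher and 16.8% lower. In siBrca1, 5 were higher and 1 lower, against 25.4% and 21.8% of all genes. In siBard1, 4 were higher and 0 lower, against 8.67% and 5.87%. The siBard1 count was 2 without either of the nt libraries, 1 without siBard1 replicate 1, and 1 with no filter on low values or no trend in the fit. Over the 9 genes the median log2 fold change was 0.59 for siWdr5, 0.56 for siBrca1 and 0.32 for siBard1, beside medians over all genes of -0.04, 0.00 and -0.02. The 3 comparisons use the same pair of nt libraries, so a deviation of those libraries enters all of them. The 9 genes were chosen with earlier results of these data known, so the counts beside the shares of all genes are a description only.

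**Figure D1:**
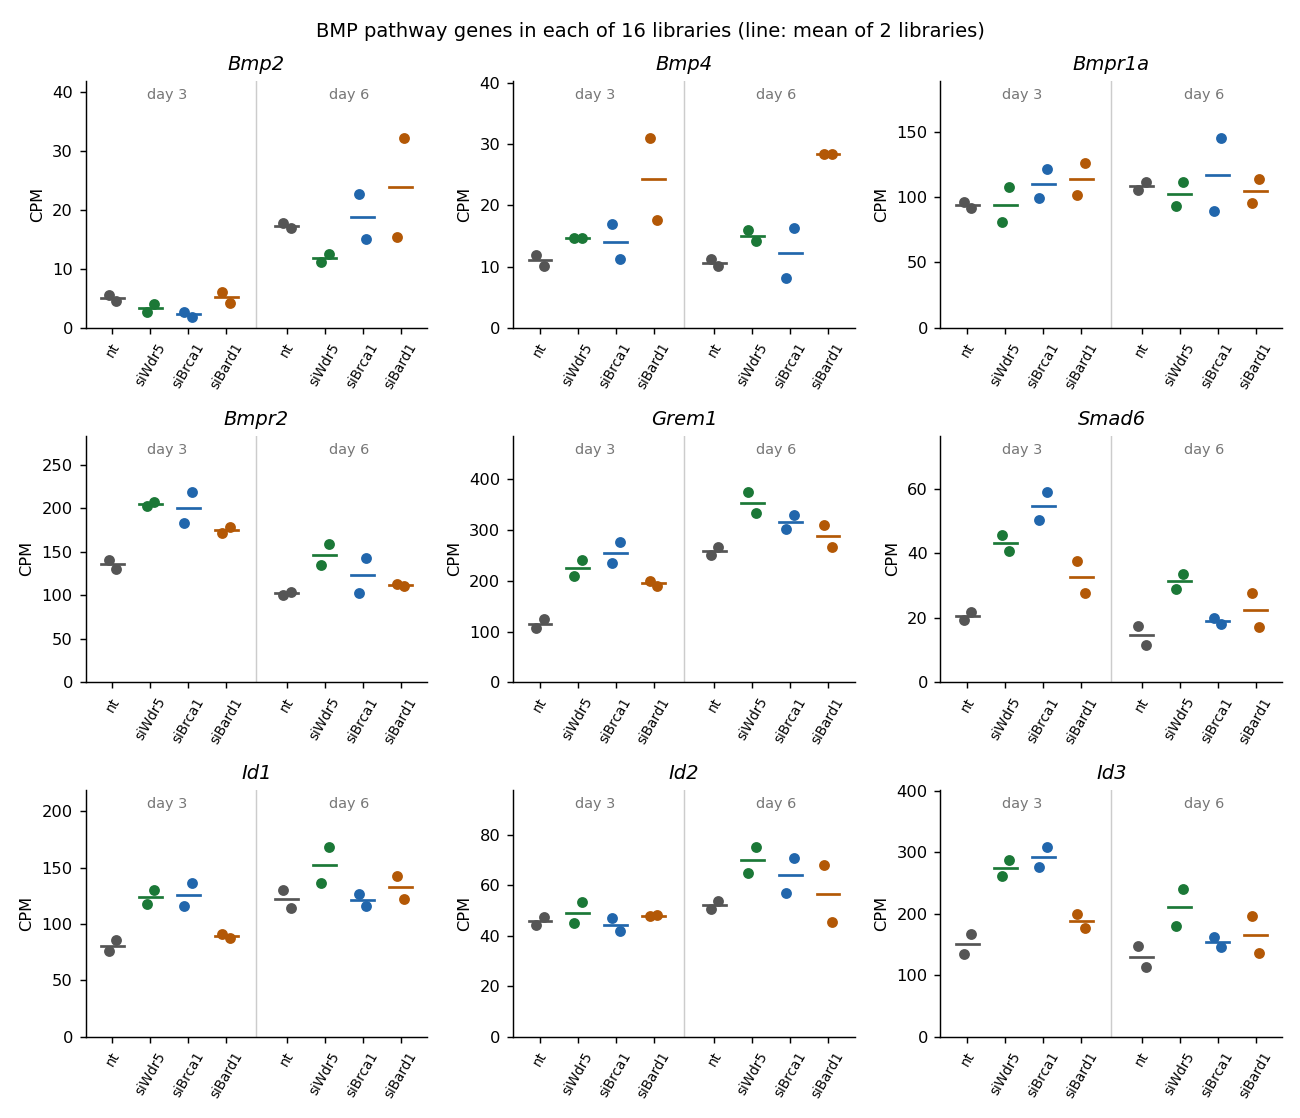
Level of each BMP pathway gene in CPM (linear axis from 0) in the 16 libraries, grouped by siRNA at day 3 (left of the grey line) and day 6 (right). Points are libraries and bars the mean of 2 libraries. *Smad6*, *Grem1*, *Bmpr2*, *Id1* and *Id3* lie above nt in all 6 knockdown libraries of day 3, and *Bmp2* and *Grem1* stand higher in nt at day 6 than at day 3.

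The ligands each passed the test in 1 knockdown at day 3, *Bmp2* in siBrca1 and *Bmp4* in siBard1, and the difference between them was not tested. *Bmp2*, a ligand known for bone and cartilage induction, lies on chromosome 2 (133552159 to 133562885, plus strand, mm10). It measured 5.55 and 4.58 CPM in nt at day 3, 2.69 and 4.05 in siWdr5, 2.72 and 1.89 in siBrca1, and 6.10 and 4.29 in siBard1. Both siBrca1 libraries and both siWdr5 libraries were below both nt libraries, while the siBard1 libraries overlapped them. In siBrca1 the log2 fold change was -1.15 (SE 0.28, limma adjusted p = 0.00412), which is a level of 0.450 times nt. In siWdr5 it was -0.61 (SE 0.28, adjusted p = 0.106), which did not pass the test.

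*Bmp4*, the ligand that supports mouse embryonic stem cell self-renewal together with LIF, lies on chromosome 14 (46383520 to 46390669, minus strand). It measured 11.9 and 10.1 CPM in nt, 14.6 and 14.7 in siWdr5, 17.0 and 11.2 in siBrca1, and 31.0 and 17.6 in siBard1 at day 3. The siBard1 libraries were the highest of the day, but they differed from each other by more than the nt libraries did. The log2 fold change in siBard1 was 1.09 (SE 0.24, limma adjusted p = 0.00997), a level 2.12 times nt. It no longer passed in 4 of the 12 alternative fits, among them those without nt replicate 2 (0.97) and without siBard1 replicate 1 (0.68). In siWdr5 and siBrca1 the values were 0.42 (SE 0.24, adjusted p = 0.192) and 0.32 (SE 0.24, adjusted p = 0.282). Of the exonic bases of *Bmp4*, 3.96% are also exon of Gm15217 on the opposite strand, and whether the counting used strand is not given in the sources used here.

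Of the receptors, the type II receptor moved and the type I receptor did not pass the test. *Bmpr2*, which phosphorylates the type I receptor in the ligand-bound complex, lies on chromosome 1 (59763400 to 59879014, plus strand). It measured 141 and 129.8 CPM in nt, 202 and 207 in siWdr5, 183 and 218 in siBrca1, and 171 and 178 in siBard1 at day 3. Each of the 6 knockdown libraries was above both nt libraries. The log2 fold change was 0.59 in siWdr5 (SE 0.11, limma adjusted p = 0.00102), 0.56 in siBrca1 (SE 0.11, adjusted p = 0.000772) and 0.37 in siBard1 (SE 0.11, adjusted p = 0.0362), so all were below a doubling. The siBard1 call was lost in 7 of the 12 alternative fits. These include leaving out any 1 of the 4 libraries compared, at values of 0.31 to 0.43.

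*Bmpr1a*, a type I receptor for Bmp2 and Bmp4, lies on chromosome 14 (34410734 to 34503341, minus strand), and 4.57% of its exonic bases are also exon of Gm17110 on the opposite strand. Its day 3 levels ran from 80.6 to 126 CPM over the 8 libraries, with nt at 96.3 and 91.5 CPM. Against nt it differed by -0.01 on the log2 scale in siWdr5, by 0.23 in siBrca1 and by 0.27 in siBard1 (SE 0.15 each), with limma adjusted p of 0.969, 0.229 and 0.232.

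The promoters of the genes that oppose or report the signal are given because *Smad6*, *Id3* and *Grem1* rose at day 3, while *Id2*, a target of the same family as *Id3*, did not pass the test. Of the 9 genes, 7 were matched in the RefSeq promoter table (GRCm38.p6, 250 bases before to 50 after the start of transcription), and *Bmp2* and *Id1* were not. Shown 5′ to 3′ along each gene are *Grem1* (chr2:113758599-113758898, minus strand), *Smad6* (chr9:64022010-64022309, minus strand), *Id3* (chr4:136143572-136143871, plus strand) and *Id2* (chr12:25096043-25096342, minus strand). Capitals mark GGCGCC, a palindrome known as a GC-rich element of BMP-responsive Smads, and GTCT or its reverse complement AGAC, the short Smad-binding element. No base can belong to both motifs.
Grem1: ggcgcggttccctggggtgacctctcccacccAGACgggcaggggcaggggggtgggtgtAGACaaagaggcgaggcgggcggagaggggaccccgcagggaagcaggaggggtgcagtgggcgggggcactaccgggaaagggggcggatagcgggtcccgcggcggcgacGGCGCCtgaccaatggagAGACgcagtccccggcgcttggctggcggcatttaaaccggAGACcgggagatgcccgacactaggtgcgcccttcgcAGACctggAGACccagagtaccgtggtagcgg
Smad6: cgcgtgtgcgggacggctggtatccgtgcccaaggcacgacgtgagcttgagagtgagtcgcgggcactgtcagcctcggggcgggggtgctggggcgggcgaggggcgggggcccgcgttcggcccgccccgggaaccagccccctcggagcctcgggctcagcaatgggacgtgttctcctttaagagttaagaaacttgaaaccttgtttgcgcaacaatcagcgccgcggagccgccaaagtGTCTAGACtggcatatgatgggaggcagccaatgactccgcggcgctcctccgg
Id3: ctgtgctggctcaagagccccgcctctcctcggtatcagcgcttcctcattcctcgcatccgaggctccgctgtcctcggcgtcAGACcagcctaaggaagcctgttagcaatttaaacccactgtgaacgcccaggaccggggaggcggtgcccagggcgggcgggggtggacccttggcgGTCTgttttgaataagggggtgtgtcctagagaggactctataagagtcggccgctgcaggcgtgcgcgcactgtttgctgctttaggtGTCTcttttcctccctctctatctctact
Id2: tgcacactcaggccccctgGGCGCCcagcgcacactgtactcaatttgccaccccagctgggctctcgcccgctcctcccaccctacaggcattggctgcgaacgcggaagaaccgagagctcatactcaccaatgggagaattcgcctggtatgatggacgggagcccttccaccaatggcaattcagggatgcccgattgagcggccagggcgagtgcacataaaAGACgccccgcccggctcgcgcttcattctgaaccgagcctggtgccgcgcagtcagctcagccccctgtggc
The window of *Grem1* holds 1 match to GGCGCC and 6 to GTCT or AGAC, that of *Smad6* holds 0 and 2, that of *Id3* 0 and 3, and that of *Id2* 1 and 1. Among the 32851 windows of 300 bases in the table, 11.9% hold GGCGCC and 88.0% hold GTCT or AGAC. Among the 7 members with a promoter, 4 hold the former and 6 the latter. A match is a description of these letters only, and *Id2*, which did not pass the test, holds both motifs.

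*Grem1* encodes Gremlin, which binds and holds back Bmp2 and Bmp4, and lies on chromosome 2 (113746164 to 113758646, minus strand). At day 3 it measured 107 and 124 CPM in nt, 210.4 and 241 in siWdr5, 235 and 276 in siBrca1, and 200.0 and 190.3 in siBard1. The lowest knockdown library stood well above the highest nt library. The log2 fold change was 0.97 in siWdr5 (SE 0.12, limma adjusted p = 5.88e-05), 1.15 in siBrca1 (SE 0.12, adjusted p = 9.74e-06) and 0.76 in siBard1 (SE 0.12, adjusted p = 0.00132), which are levels 1.96, 2.22 and 1.70 times nt. These calls held whichever single library was left out.

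*Smad6* encodes the inhibitory Smad that dampens BMP receptor signalling and is itself induced by it. The gene lies on chromosome 9 (63953076 to 64022059, minus strand). It measured 19.3 and 21.8 CPM in nt, 45.5 and 40.8 in siWdr5, 50.2 and 58.8 in siBrca1, and 37.4 and 27.7 in siBard1 at day 3. All 6 knockdown libraries exceeded nt, and the siBrca1 libraries were the highest. It had the largest rise of the 9 genes in siWdr5 and siBrca1, with log2 fold changes of 1.07 (SE 0.15, limma adjusted p = 0.000166) and 1.40 (SE 0.15, adjusted p = 1.27e-05), or 2.10 and 2.65 times nt. In siBard1 the value was 0.65 (SE 0.15, adjusted p = 0.0126). That call was lost in 5 of the 12 alternative fits, among them those without nt replicate 1 (0.56) and without siBard1 replicate 1 (0.43).

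The *Id* genes, the best known direct targets of BMP signalling, split into a pair that moved and 1 that did not pass. *Id1* lies on chromosome 2 (152736251 to 152737410, plus strand) and measured 75.8 and 85.9 CPM in nt, 118 and 130.2 in siWdr5, 116 and 136 in siBrca1, and 90.8 and 87.6 in siBard1 at day 3. The siWdr5 and siBrca1 libraries were clear of nt, and the siBard1 libraries lay just above it. It changed by 0.62 on the log2 scale in siWdr5 (SE 0.11, limma adjusted p = 0.00115), 0.64 in siBrca1 (SE 0.11, adjusted p = 0.00049) and 0.14 in siBard1 (SE 0.11, adjusted p = 0.416).

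*Id3* followed the same order on chromosome 4 (136143497 to 136145755, plus strand). It measured 134 and 167 CPM in nt, 262 and 287 in siWdr5, 276 and 309 in siBrca1, and 199 and 176 in siBard1 at day 3. Again the siWdr5 and siBrca1 libraries were far above nt and the siBard1 libraries slightly above. The log2 fold change was 0.87 in siWdr5 (SE 0.12, limma adjusted p = 0.000166), 0.96 in siBrca1 (SE 0.12, adjusted p = 4.48e-05) and 0.32 in siBard1 (SE 0.12, adjusted p = 0.0912), which are 1.83, 1.95 and 1.25 times nt.

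*Id2*, on chromosome 12 (25093799 to 25097140, minus strand), stayed within 42.0 to 53.5 CPM over all 8 libraries of day 3. It differed from nt by 0.10 (siWdr5), -0.05 (siBrca1) and 0.07 (siBard1) on the log2 scale, each with an SE of 0.12 and limma adjusted p of 0.551, 0.775 and 0.738. Whether *Id2* differed from *Id1* and *Id3* in its response was not tested.

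**Figure D2:**
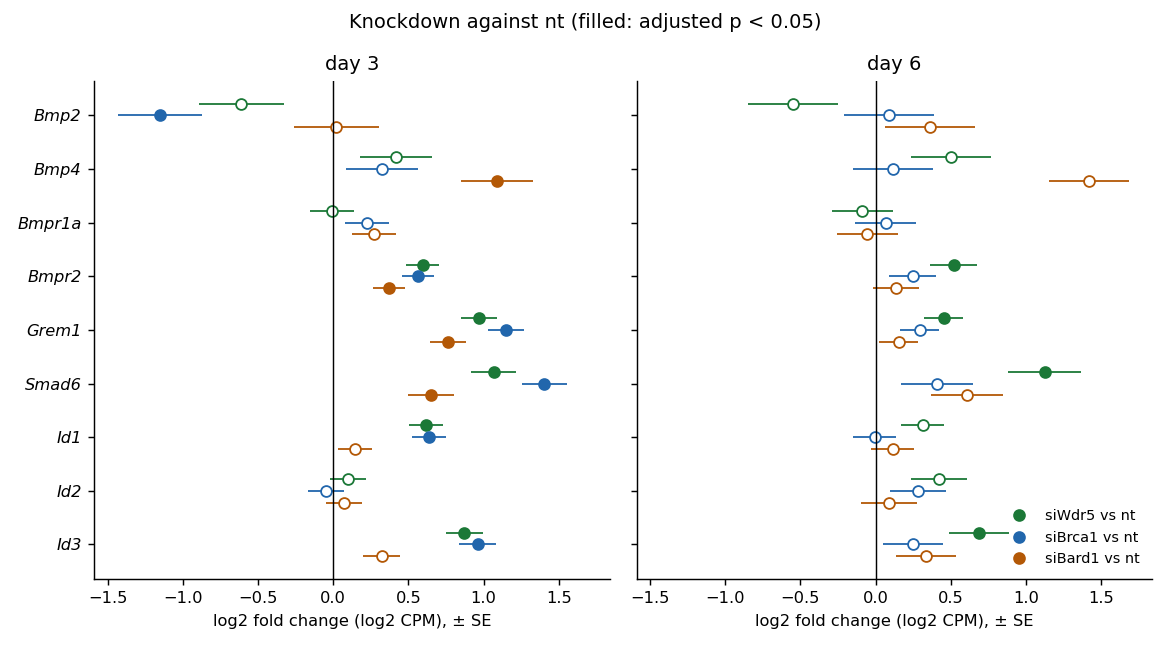
Log2 fold change against nt on the log2 CPM scale (x axis) of the 9 genes (rows) at day 3 (left) and day 6 (right), with bars of ± 1 standard error from limma and a colour per knockdown. Filled circles passed at adjusted p below 0.05. At day 3 *Smad6* and *Grem1* reach 1.40 and 1.15 in siBrca1, and at day 6 all filled circles belong to siWdr5.

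Per kilobase of exon, *Id3* and *Id1* were the most abundant of the 9 genes in nt at day 3, at 84.2 and 69.7 CPM per kb. *Grem1* followed at 27.8, *Id2* at 18.8, *Bmpr1a* at 14.8, *Bmpr2* at 7.53, *Smad6* at 6.42, *Bmp4* at 4.91 and *Bmp2* at 1.42 CPM per kb. Both ligands were the lowest of the set in nt at day 3. In nt at day 6 the lowest were *Smad6* (4.55), *Bmp4* (4.73) and *Bmp2* (4.89 CPM per kb), and *Grem1* stood at 62.2 CPM per kb, next below *Id1* (105) and *Id3* (72.9). The exon lengths come from all annotated transcripts of a gene, so the values are comparable in order of size only.

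Markers of other cell states moved at day 3 as well. All 5 contractile and smooth muscle markers rose in each knockdown, and their summed level was 881 to 1090 CPM in nt, 3174 to 3305 CPM in siWdr5, 4611 to 6057 CPM in siBrca1 and 2404 to 3049 CPM in siBard1. Of the 8 fibroblast markers, 8 rose in siWdr5, 4 rose and 1 fell in siBrca1, and 0 rose and 1 fell in siBard1. All 6 proliferation markers fell in siWdr5 and in siBrca1, and 1 fell in siBard1. Of the 3 macrophage markers tested, 1 rose in siWdr5, 2 in siBrca1 and 0 in siBard1. Mitochondrial ribosomal RNA took 0.0159% to 0.0233% of reads in nt and 0.000701% to 0.00616% in the knockdowns. Epithelial markers summed to 46.7 to 70.8 CPM in nt and to 22.2 to 47.8 CPM in the knockdowns, where siBard1 (40.0 to 47.8 CPM) overlapped nt. Of the 8, 4 fell in siWdr5, 2 fell and 1 rose in siBrca1, and 0 passed in siBard1. Pluripotency markers summed to 8.43 to 10.8 CPM in nt and to 2.28 to 4.81 CPM in the knockdowns, which did not overlap nt. Of the 6 pluripotency markers tested, 1 passed as lower in each knockdown. Their part in the changes of the BMP genes was not tested.

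The knockdowns were compared with each other at day 3, without nt. Between siBrca1 and siBard1, *Grem1*, *Id1*, *Id3* and *Smad6* were higher in siBrca1, and *Bmp2* and *Bmp4* were lower. These are 4 genes higher and 2 lower of 9, where 13.1% of all tested genes were higher and 8.33% lower. The largest differences were -1.17 for *Bmp2* (SE 0.28, limma adjusted p = 0.0117), -0.76 for *Bmp4* (SE 0.24, adjusted p = 0.0367) and 0.75 for *Smad6* (SE 0.15, adjusted p = 0.00564). *Id3* differed by 0.64 (SE 0.12, adjusted p = 0.00508), *Id1* by 0.49 (SE 0.11, adjusted p = 0.0103) and *Grem1* by 0.39 (SE 0.12, adjusted p = 0.0334). The count of 6 rests on single libraries, as it was 0 without siBard1 replicate 2 and 3 without siBard1 replicate 1, and it was 0 in a fit without the trend. All 5 smooth muscle markers were also higher in siBrca1 than in siBard1 and all 6 proliferation markers lower, and their part in these differences was not tested.

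Between siWdr5 and siBard1, *Id1* and *Id3* were higher in siWdr5, by 0.47 (SE 0.11, limma adjusted p = 0.0214) and 0.55 (SE 0.12, adjusted p = 0.0148). These are 2 genes higher and 0 lower, where 4.85% of all genes were higher and 3.78% lower. The count fell to 0 when siWdr5 replicate 1, siWdr5 replicate 2 or siBard1 replicate 2 was left out, and with no filter or no trend. In the same comparison 5 of the 8 fibroblast, 2 of the 5 smooth muscle and 2 of the 3 tested macrophage markers were higher in siWdr5 and 2 of the 8 epithelial markers lower, and their part in the difference was not tested. Between siWdr5 and siBrca1, 0 of the 9 genes passed, where 5.47% of all genes were higher in siWdr5 and 10.2% lower. At an unadjusted p below 0.05 in limma the count was 1, *Smad6* at -0.34 (SE 0.15, adjusted p = 0.144), and limma-voom on the recovered reads gave 0. Without siBrca1 replicate 1 it was 3. That replicate held more *Brca1* RNA (37.5 CPM) than siBrca1 replicate 2 (19.4 CPM).

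At day 6 a difference from nt passed the test in siWdr5 alone. *Smad6* measured 17.5 and 11.7 CPM in nt and 29.0 and 33.6 CPM in siWdr5, with a log2 fold change of 1.12 (SE 0.24, limma adjusted p = 0.0117). *Id3* measured 147 and 114 CPM in nt and 179.9 and 241 CPM in siWdr5, a change of 0.69 (SE 0.20, adjusted p = 0.0355). *Bmpr2* stood at 100.03 and 104 CPM in nt and at 135 and 159 CPM in siWdr5, a change of 0.52 (SE 0.15, adjusted p = 0.0383). Both siWdr5 libraries lay above both nt libraries for each of these genes. *Grem1* measured 250.2 and 266 CPM in nt and 374 and 333 CPM in siWdr5, a change of 0.45 (SE 0.13, adjusted p = 0.0334). These are 4 genes higher and 0 lower, where 16.1% of all genes were higher and 5.7% lower. The count was 0 without nt replicate 2 or without siWdr5 replicate 2, and 1 without nt replicate 1 or in a fit without the trend. In siWdr5 at day 6 all 5 smooth muscle markers were higher than in nt (678 to 828 CPM summed against 153 to 190 CPM), 5 of the 8 epithelial markers were lower and 4 of the 8 fibroblast markers were higher. Mitochondrial ribosomal RNA took 0.00223% to 0.00337% of reads there, against 0.0217% to 0.0487% in nt. Their part in the result was not tested, nor was the difference between siWdr5 and the other knockdowns at day 6.

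In siBrca1 at day 6, 0 of the 9 genes passed in limma, and 0% of all genes did. At an unadjusted p below 0.05 the count was 1, *Grem1*, which measured 303 and 330.0 CPM against 250.2 and 266 CPM in nt and differed by 0.29 (SE 0.13, adjusted p = 0.616). Limma-voom on the recovered reads called 0 as well. In siBard1 at day 6, 0 of the 9 genes passed in limma, where 0.0784% of all genes did, with 2 at an unadjusted p below 0.05 and 0 by limma-voom. These 2 were *Bmp4* and *Smad6*. *Bmp4* measured 28.4 and 28.4 CPM in siBard1 against 11.3 and 10.0 CPM in nt, and the groups did not overlap. Its log2 fold change, the largest of the 9 genes at day 6, was 1.42 (SE 0.27, limma unadjusted p = 0.000296, adjusted p = 0.0815). It passed when the fit used all 16 libraries or only the 4 libraries compared. *Smad6* measured 27.6 and 17.3 CPM in siBard1, a difference of 0.61 (SE 0.24, adjusted p = 0.31).

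The course of control reprogramming was read from nt at day 6 against nt at day 3, in the model of all 16 libraries. *Bmp2*, *Grem1* and *Id1* rose and *Bmpr2* fell, which is 3 genes higher and 1 lower, where 19% of all genes were higher and 27.1% lower. *Bmp2* went from 5.55 and 4.58 CPM to 17.8 and 17.0 CPM, a log2 fold change of 1.79 (SE 0.31, limma adjusted p = 0.000298). *Grem1* went from 107 and 124 CPM to 250.2 and 266 CPM, a change of 1.17 (SE 0.12, adjusted p = 5.68e-06). The libraries of both days were far apart for both genes. *Id1* went from 75.8 and 85.9 CPM to 130.4 and 114 CPM, a change of 0.60 (SE 0.13, adjusted p = 0.00156). *Bmpr2* went from 141 and 129.8 CPM to 100.03 and 104 CPM, a change of -0.41 (SE 0.14, adjusted p = 0.0232), and this call was lost when any 1 of the 4 nt libraries was left out (-0.35 to -0.47). For *Smad6* the change was -0.52 (SE 0.22, adjusted p = 0.0593), for *Id3* -0.21 (SE 0.18, adjusted p = 0.35), for *Bmpr1a* 0.21 (SE 0.20, adjusted p = 0.404), for *Id2* 0.19 (SE 0.16, adjusted p = 0.361) and for *Bmp4* -0.05 (SE 0.29, adjusted p = 0.903). Over the same course all 8 epithelial markers rose (46.7 to 70.8 CPM summed at day 3, 590 to 781 CPM at day 6) and all 5 smooth muscle markers fell, and their part in these changes was not tested.

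*Bmp2* and *Grem1* can be read across both axes. *Bmp2* rose in the nt course and was lower in siBrca1 at day 3, whereas *Grem1* rose in the nt course and was higher in every knockdown at day 3. *Smad6* and *Id3* gave negative values in the nt course that did not pass and were higher in siWdr5 and siBrca1 at day 3. The nt libraries of day 3 enter both comparisons.

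The change of each knockdown's effect from day 3 to day 6 was tested as an interaction in the model of all 16 libraries. In siBrca1 the effect was smaller at day 6 for *Smad6* (-0.997, SE 0.31, limma adjusted p = 0.0311), for *Grem1* (-0.85, SE 0.18, adjusted p = 0.00534) and for *Id1* (-0.64, SE 0.18, adjusted p = 0.023). These are 0 genes higher and 3 lower, where 10.3% of all genes were higher and 10.3% lower. *Bmp2* and *Id3* came close, at 1.24 (SE 0.44, adjusted p = 0.0578) and -0.71 (SE 0.25, adjusted p = 0.0572). The *Grem1* call held whichever library was left out, while the count was 1 without nt day 3 replicate 1, without siBrca1 day 3 replicate 2 or without nt day 6 replicate 1. In siWdr5, 0 of the 9 genes passed in limma where 4.43% of all genes did, with 1 at an unadjusted p below 0.05, *Grem1* at -0.52 (SE 0.18, adjusted p = 0.0919), and 0 by limma-voom. In siBard1, 0 passed where 0.0499% of all genes did, with 1 at an unadjusted p below 0.05, *Grem1* at -0.61 (SE 0.18, adjusted p = 0.0892), and 0 by limma-voom.

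Further genes of the pathway were examined from a list of 49, of which 42 were in the table and 37 were tested. This list was also made with earlier results of these data known. At day 3, 21 of the 37 rose and 1 fell in siWdr5, 25 rose and 2 fell in siBrca1, and 11 rose and 2 fell in siBard1. Of all tested genes 18.3% rose and 16.8% fell in siWdr5, 25.4% and 21.8% in siBrca1, and 8.67% and 5.87% in siBard1. The median log2 fold change of the 37 was 0.54, 0.64 and 0.38. By role, 7 of the 10 antagonists tested rose in siWdr5, 8 of 10 in siBrca1 and 4 of 10 in siBard1, and 0 fell. Of the 9 receptors and co-receptors, 6 rose and 1 fell in siWdr5, 5 rose and 2 fell in siBrca1, and 2 rose and 2 fell in siBard1. Of the 6 ligands, 1 rose after siWdr5, 4 after siBrca1 and 1 after siBard1. The Smads and their ubiquitin ligases gave 4, 5 and 1 of 7 higher, and the further targets 3 of 5 higher in each knockdown, with 0 lower.

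*Nbl1*, which encodes a secreted antagonist, measured 17.2 and 21.5 CPM in nt, 51.7 and 52.4 in siWdr5, 54.6 and 74.3 in siBrca1, and 36.4 and 29.1 in siBard1, with log2 fold changes of 1.44 (SE 0.16, limma adjusted p = 3.12e-05), 1.73 (SE 0.16, adjusted p = 5.38e-06) and 0.76 (SE 0.16, adjusted p = 0.00838). All 6 knockdown libraries were above both nt libraries. *Nog*, which encodes Noggin, rose by 1.40 in siWdr5 and 1.56 in siBrca1. In siWdr5 the largest changes also included *Bmper*, a secreted modulator of BMP ligands (1.32), *Atoh8*, a BMP target (1.31), and *Acvr2b*, a type II receptor that activin also uses (-1.31). In siBrca1 they included *Nbl1*, *Msx2*, a homeobox target (1.85), the ligand gene *Bmp8b* (1.81), *Fstl3*, a follistatin-like binder of activin and BMP ligands (1.71), and the type I receptor gene *Bmpr1b* (1.59). In siBard1 they included *Msx2* (1.22), *Bmp8b* (1.20), *Bmpr1b* (1.16), *Acvr2b* (-0.93) and the type I receptor gene *Acvrl1* (0.78). *Bmp8b*, *Bmpr1b*, *Fstl3*, *Msx2* and *Nog* were low in nt at day 3, between 1.59 and 5.73 CPM.

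**Figure D3:**
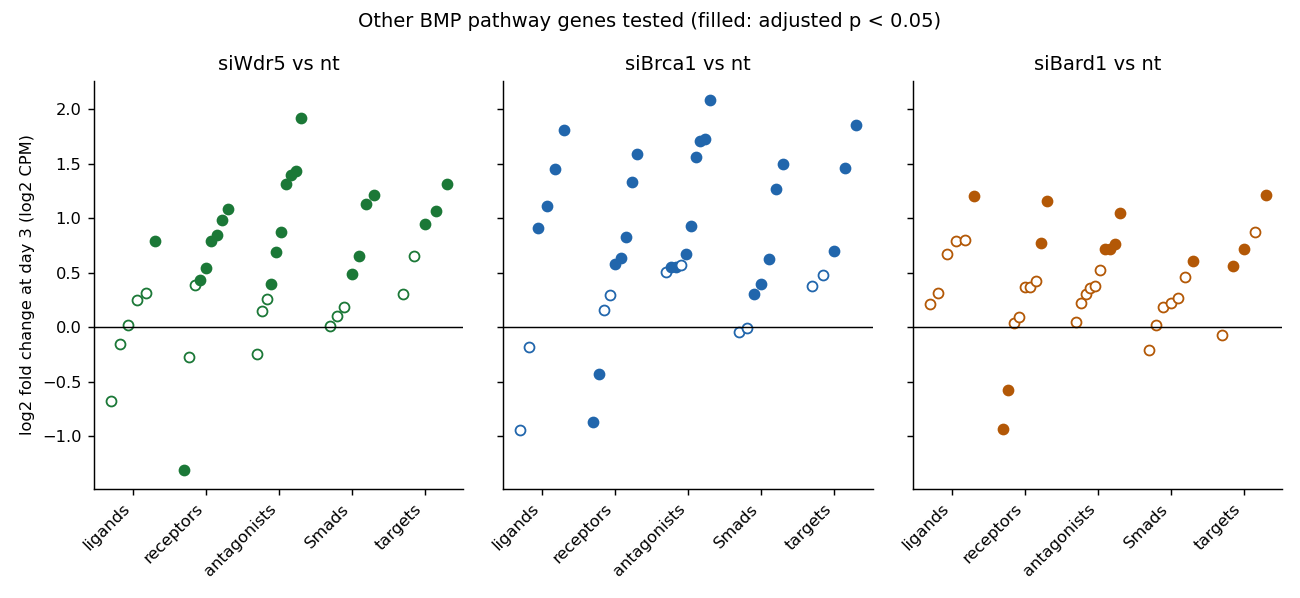
Log2 fold change at day 3 on the log2 CPM scale (y axis) of the 37 further BMP pathway genes tested, by role (x axis), for each knockdown against nt. Each circle is a gene, filled where it passed at adjusted p below 0.05. Among the 10 antagonists none of the filled circles lies below 0 and *Nbl1* reaches 1.44, 1.73 and 0.76.

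Between knockdowns at day 3, 13 of the 37 were higher and 1 lower in siBrca1 than in siBard1 (13.1% and 8.33% of all genes). The largest included *Fstl3* (1.33), *Nog* (1.03), *Nbl1* (0.97), the inhibitory Smad gene *Smad7* (0.89) and the ligand gene *Gdf6* (-0.85). Against siBard1, siWdr5 had 11 higher and 1 lower (4.85% and 3.78% of all genes), among them *Bmp8b* (-0.95), *Nog* (0.87), the BMP-responsive Smad gene *Smad9* (0.75), *Nbl1* (0.68) and the pseudoreceptor gene *Bambi* (0.62). Against siBrca1, siWdr5 had 1 of the 37 higher and 7 lower (5.47% and 10.2% of all genes), and 4 of these 7 were among the 6 ligands. The largest differences there were *Fstl3* (-1.56), *Bmp8b* (-1.56), *Bmp8a* (-1.43), *Gdf5* (-1.27), *Gdf6* (0.97) and *Msx2* (-0.79).

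In the nt course 8 of the 37 rose and 13 fell, where 19% of all genes rose and 27.1% fell. Among the 37, *Bmp3*, a ligand that opposes other BMPs, rose most (2.97, SE 0.60), from only 16 and 9 reads in nt at day 3. The homeobox target *Msx1* followed (1.71, SE 0.35). *Bmp7* was not tested because of the filter on low values. It measured 0.202 and 0.193 CPM in nt at day 3 and 3.10 and 5.08 CPM at day 6. The largest falls were those of *Gdf5* (-2.68, SE 0.51), the Notch and BMP target *Hey1* (-1.42, SE 0.39), *Bmpr1b* (-1.38, SE 0.25) and *Nog* (-1.23, SE 0.32). *Gdf5*, *Hey1* and *Bmpr1b* stood between 0.216 and 1.73 CPM in nt at day 6, and *Gdf5* held only 1 and 5 reads there, so its fitted value depends on the prior count. At day 6, 13 of the 37 were higher and 2 lower in siWdr5, where 16.1% and 5.7% of all genes were. In siBrca1, 0 passed (limma, with 8 at an unadjusted p below 0.05), where 0% of all genes did, and in siBard1 1 was higher, *Msx1*, where 0.0784% of all genes passed. It measured 35.8 and 34.4 CPM in siBard1 against 12.7 and 12.02 CPM in nt (1.51, SE 0.19, limma adjusted p = 0.0252).

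Across the 16 libraries, after the mean of its day was subtracted from each value, the responsive genes varied together. Pearson's r was 0.96 for *Id1* with *Id3*, 0.96 for *Id3* with *Smad6* and 0.88 for *Id1* with *Smad6*. *Grem1* had an r of 0.84 with *Smad6* and 0.83 with *Bmpr2*. *Id2* reached only 0.42 with *Id3* and 0.27 with *Id1*. *Bmp2* had a negative r with *Id1* (-0.69), *Id3* (-0.68), *Smad6* (-0.67), *Bmpr2* (-0.65) and *Grem1* (-0.64), but 0.25 with *Bmp4* and -0.05 with *Bmpr1a*. *Bmp4* had an r between 0.01 and 0.27 with each of the other 8 genes. These values describe 16 libraries that share groups, so they include the differences between the groups.

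**Figure D4:**
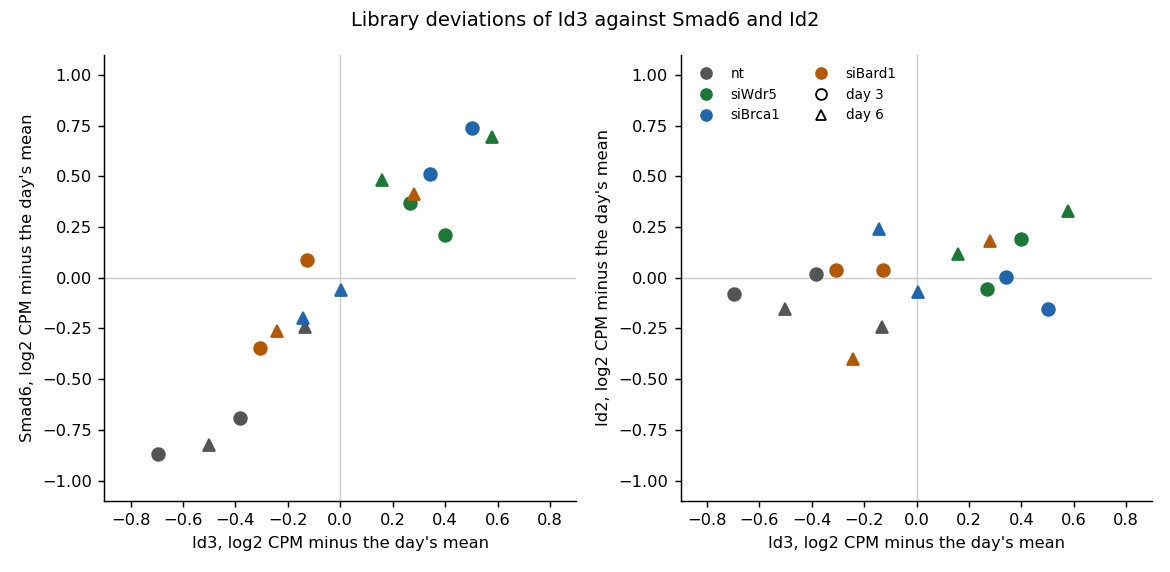
Deviation of each library from the mean of its day in log2 CPM, for *Id3* (x axes) against *Smad6* (left) and *Id2* (right), with a colour per siRNA, circles for day 3 and triangles for day 6. *Smad6* rises with *Id3* over the 16 libraries (r 0.96), and *Id2* spreads more loosely (r 0.42).

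Outside the pathway, the tested genes with the most similar deviations were named for each gene by the highest Pearson's r over the 16 libraries. For *Smad6* they were *Actb*, which encodes beta-actin (r 0.98), *Arhgap23* (0.98) and *Fzd7* (0.97). For *Id3* they were *Cyhr1* (0.97), *Dbn1* (0.96) and *Gnai2* (0.96), and for *Id1* they were *Npc2* (0.96), *Oaz2* (0.95) and *Tspyl2* (0.95). *Grem1* was followed by *Inhba*, which encodes an activin subunit (0.97), *Cald1*, which encodes the actin-binding caldesmon (0.96), and *Filip1l* (0.96), and *Bmpr2* by *Rbms3* (0.98), *Hipk3* (0.97) and *Tec* (0.96). The others had nearest genes at lower values. These were *Zfp281*, *Lmbrd2* and *Slc33a1* for *Bmpr1a* (0.92 each), *Zcchc10* (0.90), *Prpsap2* (0.88) and *Btbd11* (0.87) for *Bmp2*, *Pknox2* and *Fam110b* for *Id2* (0.86 each), and *Stxbp6* (0.84), *Ndnf* (0.83) and *Unc13c* (0.81) for *Bmp4*.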

How the data were processed

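Libraries were depleted of ribosomal RNA and sequenced paired-end. Per the labels and the methods, the authors aligned reads to mm10 with STAR 2.5.2b and deposited log2 CPM from edgeR 3.20.9, with scaling and a prior count. The counter, its strand setting, the annotation and the filter are not given in the sources used here. Whole reads were recovered from the deposited log2 values (100% within 0.01 of a whole read). CPM in the text is 2 to the power of the deposited value.

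Limma 3.58.1 in R 4.3.3 was fitted with a mean-variance trend to 14028 genes (those averaging 0 log2 CPM or more), with 1 mean per group, on the 8 libraries of a day or on all 16 for comparisons between days. Two-sided p-values were adjusted over these genes (Benjamini-Hochberg). The fit was also run on data simulated for siBrca1 against nt at day 3, with far fewer genes changed than were called in the real libraries. That run does not show how the fit performs in the other comparisons or with so many changed genes. The replicates come from independent experiments, with 2 libraries per group. SEs and p-values rest on a spread pooled over all groups in the fit and moderated across genes. They do not measure the spread of the compared groups alone.

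The members and lists were chosen with earlier results of these data known. All 9 members are named. Of the other BMP genes, the 6 with the largest absolute log2 fold change among those that passed are named per day 3 comparison and in the nt course, and *Msx1* at day 6 as the only call. Values of *Acvr1*, *Acvrl1* and *Bmp7* are also given outside this rule. For likeness, the 3 genes outside the pathway with the highest r are named. Some genes that these rules would name are not reported here. Gene positions and exon lengths come from GENCODE vM21 (mm10). Alternatives were another filter, pseudocount, set of libraries, moderation, centring, limma-voom, replicate block and fold change threshold, and leaving out each library.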

Additional observations from a re-analysis of the deposited data

Results flagged for a closer look

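Effects that differed between day 3 and day 6 were flagged where the interaction passed in limma at an adjusted p below 0.05. This held for 3 of the 9 genes, all in siBrca1, where 10.3% of all genes were higher and 10.3% lower. In siWdr5 and siBard1, 4.43% and 0.0499% of all genes passed. *Grem1* differed there by -0.52 and -0.61, which did not pass, and the difference between knockdowns was not tested. The values that follow are for siBrca1. *Smad6* differed by -0.997 (from 1.40 at day 3 to 0.41 at day 6), *Grem1* by -0.85 (from 1.15 to 0.29) and *Id1* by -0.64 (from 0.64 to -0.01). In the same libraries *Brca1* itself was below nt at day 3 (37.5 and 19.4 CPM against 82.4 and 78.0 CPM) and overlapped nt at day 6 (35.9 and 40.1 CPM against 33.2 and 42.6 CPM), and all 6 proliferation markers had a positive interaction. Their part in the difference was not tested.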

How the results depend on the processing

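With 2 libraries per group, calls in siBard1 at day 3, in siWdr5 at day 6 and between knockdowns depended on the fit, while the 5 calls of siWdr5 and the 6 of siBrca1 at day 3 passed in every fit at the adjusted p threshold. Reads limit *Bmp2* most, with 25 to 682 per library. Requiring an absolute log2 fold change above 1 left 1 gene in siWdr5, 3 in siBrca1 and 1 in siBard1 at day 3, 1 in siWdr5 at day 6, 1 for siBrca1 against siBard1, 0 for siWdr5 against siBard1, 2 in the nt course and 0 in the siBrca1 interaction. With no filter on low values the count was 1 in siBard1 at day 3, 3 for siBrca1 against siBard1 and 0 for siWdr5 against siBard1. With all 16 libraries it was 2 in siBard1 at day 3, 1 in siBard1 at day 6 and 1 for siWdr5 against siBard1. Without the trend it was 1 in siBard1 at day 3, 1 in siWdr5 at day 6, 0 for siBrca1 against siBard1, 0 for siWdr5 against siBard1 and 1 in the siBrca1 interaction. With only the libraries of the compared groups it was 7 in siWdr5 and 1 in siBard1 at day 6, 3 for siBrca1 against siBard1, 5 for siWdr5 against siBard1, and 1 in the siWdr5 and 1 in the siBard1 interaction. Centring each library on its median gene gave 2 in siWdr5 at day 6. The cause of these shifts was not tested. Shares of all genes called are given for the main fit only, and not for any alternative fit or for leaving out libraries. A changed count of BMP genes in such a fit therefore cannot be told apart from a change in calls over all genes.

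Leaving out 1 library at a time gave 5 to 5 genes in siWdr5, 6 to 7 in siBrca1 and 1 to 3 in siBard1 at day 3. At day 6 it gave 0 to 3, 0 to 0 and 0 to 0. It gave 0 to 7 for siBrca1 against siBard1, 0 to 3 for siWdr5 against siBrca1, 0 to 2 for siWdr5 against siBard1, 3 to 4 in the nt course, and 0 to 0, 1 to 4 and 0 to 0 in the siWdr5, siBrca1 and siBard1 interactions. Where a group is left with 1 library, that library is assumed to vary like the others. Signs turned in values near 0 that did not pass. Centring gave 0.057 for *Bmpr1a* in siWdr5, and limma-voom gave -0.000863 for *Bmp2* in siBard1. Leaving out a library gave -0.22 to 0.20 for *Bmpr1a* in siWdr5, -0.027 to 0.22 for *Id2* in siWdr5, -0.13 to 0.034 for *Id2* in siBrca1, -0.23 to 0.27 for *Bmp2* in siBard1, and -0.17 to 0.070 for *Bmp4* in the nt course.

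The replicate numbers are shared between groups, but same-numbered libraries did not deviate together in every pair of groups (mean r 0.02 at day 3, from -0.09 to 0.07, and 0.11 at day 6, from -0.07 to 0.26). In a fit that blocked on replicate number, counts at day 3 were 5, 6 and 4 in siWdr5, siBrca1 and siBard1 and those at day 6 were 4, 0 and 0. The block gave 3 for siWdr5 against siBard1 and 4 in the siBrca1 interaction, and each other count was as without it.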
